A study of Mytilus galloprovincialis with 8 samples.

Results

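This section describes 295 of the 51300 oligonucleotide probes of a custom mussel microarray, those whose signal was higher in exposed than in control mussels in both gill replicates while their average ratio in digestive gland stayed near 0. The probes were chosen on the log2 ratio of exposed to control signal: spot intensity above local background plus an offset of 50 in each channel, centred on the median of the array, and averaged over the spots of a probe and over an array and its dye swap. A probe was a member when this centred ratio was above 0.7 in each of the 2 gill replicates and its mean over the 2 digestive gland replicates lay between -0.5 and 0.5. The same gill limit was passed by 585 probes in all, of which 259 had a digestive gland mean above 0.5 and 31 a mean below -0.5. The mirror rule, with ratios below the negative limit in both gill replicates, found 20 probes. Because exposure ratios of both tissues chose the members, these ratios are given below as a description, without a test.

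The samples were adult Mytilus galloprovincialis fed for 24 h with Prorocentrum lima, a dinoflagellate that produces okadaic acid, and non-exposed control mussels, and both groups received the same diet of microalgae. The dose is 200 cells/ml in the sample records and 200 cells/L in the methods. Every RNA was a pool of 5 mussels, so that the spread between individuals was not measured, and each array held an exposed and a control pool of the same tissue in its 2 channels. There were 2 replicates per tissue, each hybridized on 2 arrays with the dyes exchanged, which makes 8 arrays. The dye of the control RNA of 1 digestive gland array is recorded as Cy6 and was read as Cy5. All arrays lay on 1 slide, with the tissues in different rows, and the effects of tissue and of position cannot be told apart. Well above background in both channels were 37.0% to 39.6% of the spots on the gill arrays and 51.7% to 57.4% on the digestive gland arrays, and no spot was saturated.

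Okadaic acid inhibits serine/threonine protein phosphatases and is the main toxin of diarrhetic shellfish poisoning. The gill is the ciliated surface over which a mussel filters water and collects food particles. The digestive gland takes up and digests this food, and it is the organ in which most of the toxin accumulates. The contigs behind the probes were assembled from libraries of digestive gland alone: a normalized library of control mussels (contig names beginning with cDNA_MGC), a normalized library of exposed mussels (cDNA_MGT.90) and a subtractive library enriched in transcripts of exposed mussels, SSH forward (mgt200.forw). Reading the names in this way is an inference from the codes used in the study. A transcript present in gill alone could hardly be on this array. The names do not pair the contigs with genes, and probe sequences were not used here, so that the members are described by contig and the tissue labels could not be checked against marker genes of gill, digestive gland or hemocytes.

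The gill ratio of the members was moderate and differed in size between the replicates. The centred log2 ratio had a median of 0.88 in gill replicate 1 (range 0.70 to 2.11) and of 1.36 in gill replicate 2 (0.70 to 3.996). It was the higher in replicate 2 for 251 of the 295 probes (85.1%, against 47.8% of all probes). This was not particular to the members: it held for 85.7% of the probes at least 4 times brighter in control gill than in control digestive gland. In digestive gland the medians were -0.12 (range -0.94 to 0.43) in replicate 1 and 0.49 (-0.28 to 1.01) in replicate 2. A mean near 0 thus often joined values on either side of it: the replicates had opposite signs for 195 members (66.1%, against 29.9% of all probes), and each of them lay between -0.5 and 0.5 for 133 (45.1%, against 75.4%). Across the members the gill replicates correlated weakly (Pearson r = 0.20, Spearman rho = 0.19, n = 295 probes that share all libraries), a value that the limit on both replicates also narrows.

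**Figure D1:**
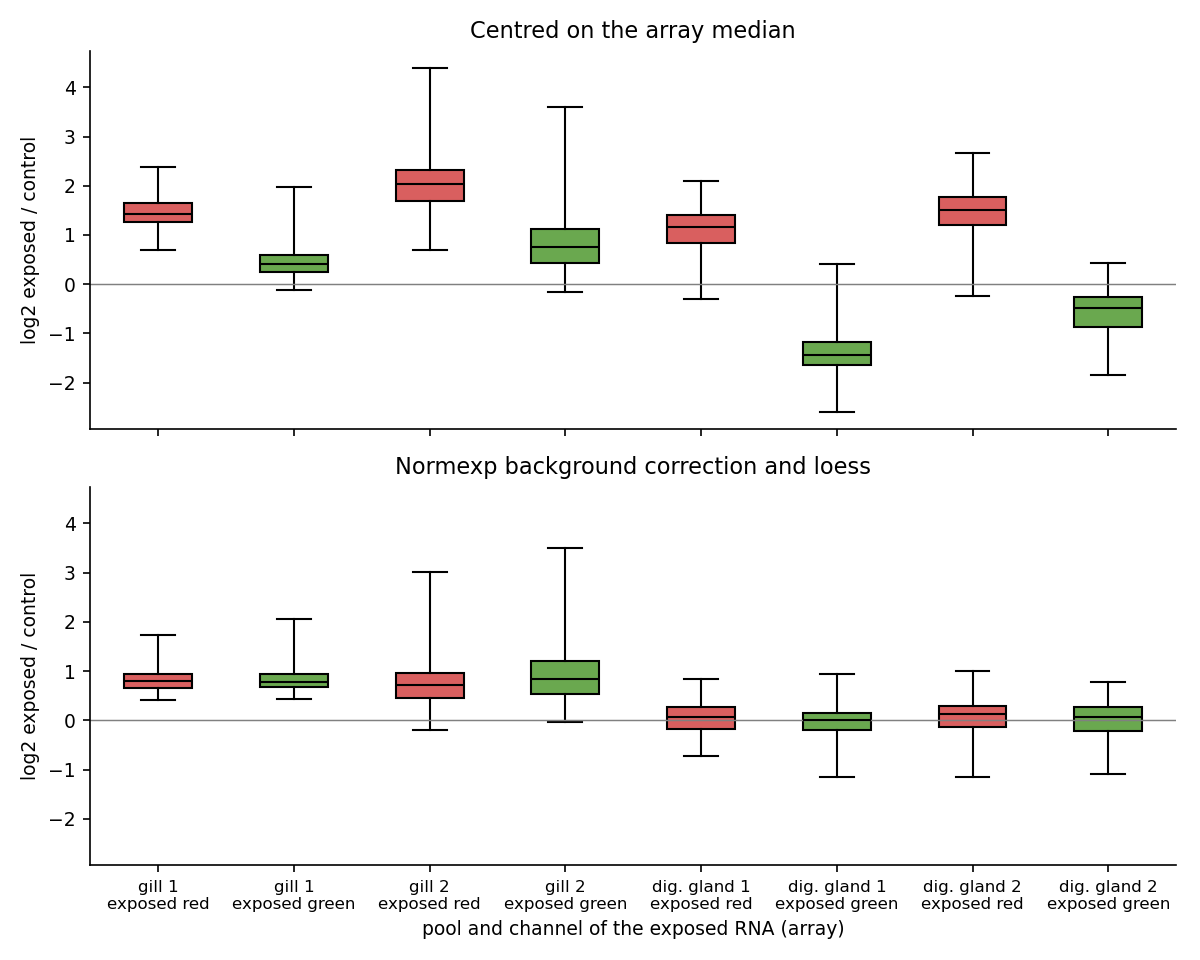
Log2 ratio of exposed to control signal of the 295 members on each array, centred on the array median (top) and after normexp background correction and loess (bottom); boxes span the quartiles with the median, whiskers the whole range, and the colour gives the channel of the exposed RNA. The centred medians run from -1.44 to 2.03 and depend on the channel, whereas the loess medians lie between 0.73 and 0.85 on the gill arrays and between -0.0033 and 0.13 on the digestive gland arrays.

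The centred ratio depended strongly on the dye. With the exposed RNA in the red channel the members had medians of 1.42 and 2.03 on the gill arrays and of 1.16 and 1.498 on the digestive gland arrays. With the exposed RNA in green the medians were 0.40 and 0.75 in gill and -1.44 and -0.48 in digestive gland. Over all probes, centred ratios of single arrays correlated at -0.60 to 0.97, the lowest between arrays of opposite dye. Loess normalization, which removes a dye effect that varies with signal, brought all these correlations above 0 (0.049 to 0.95) and gave the members nearly the same median on each gill array, 0.79, 0.79, 0.73 and 0.85. The values that follow are loess ratios and the signals that belong to them.

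After loess the members had a median gill ratio of 0.77 in replicate 1 (range 0.59 to 1.89) and of 0.78 in replicate 2 (0.12 to 3.26). All 295 were above 0 in both replicates (29.9% of all probes were), and 291 were above 0 on each of the 4 gill arrays (98.6%, against 13.3% of all probes). A loess ratio above 0.7 in both replicates was found for 121 members (41.0%, against 0.497% of all probes). The median digestive gland ratio was 0.06 in replicate 1 and 0.08 in replicate 2. In limma's fit of the dye-swap averages, p-values were adjusted by Benjamini-Hochberg over all 51210 probes tested. In gill, 3 of 289 members were called higher in exposed mussels at an adjusted p under 0.05, where 0.00976% of all probes were. At an unadjusted p under 0.05 this was so for 284 members (98.3%) and 7.11% of all probes. In digestive gland 5 of the 289 were called higher in exposed mussels (9.13% of all probes) and 15 lower (8.7%). The rule used these same contrasts, and nothing is read from these counts. The members called were mgt200.forw_rep_c3991, cDNA_MGC_rep_c9058 and cDNA_MGC_rep_c10508, each with an adjusted p of 0.046 and with gill ratios of 1.29 and 1.23, 1.14 and 1.10, and 1.19 and 1.11 in the 2 replicates. Their names were taken after their values were seen, and none of the 3 was called with any 1 replicate left out or with the replicate number as a block, where 0 members were called.

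On all 4 gill arrays, both channels were well above background for 285 of the 295 members (96.6%, against 34.4% of all probes), and on all 8 arrays for 284 (96.3%, against 33.4%). Among these 285, the 8 with the highest centred gill ratio came from cDNA_MGC_rep_c9886, mgt200.forw_rep_c3881, mgt200.forw_rep_c4404, cDNA_MGC_rep_c8573, mgt200.forw_c2303, cDNA_MGC_rep_c9826, cDNA_MGC_rep_c16070 and mgt200.forw_rep_c3991. Their probes are CUST_9885_PI427859148, CUST_39628_PI427859148, CUST_39891_PI427859148, CUST_8572_PI427859148, CUST_38378_PI427859148, CUST_9825_PI427859148, CUST_16005_PI427859148 and CUST_39704_PI427859148, in this order. In all 8 the exposed gill pools lay above both control gill pools, which their choice by the gill ratio favours. Every digestive gland pool of the 8 lay above every gill pool, which a low control gill signal favours too. Neither comparison of pools was counted over all probes. The control signal was higher in digestive gland in both replicates for 80.6% of the members with a value, against 30.1% of all probes.

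The log2 signal of cDNA_MGC_rep_c9886 was 7.36 and 7.38 in the control gill pools and 9.04 and 8.57 in the exposed gill pools. In digestive gland it was 13.19 and 13.12 in the control pools and 12.82 and 12.97 in the exposed pools. The gill ratios were thus 1.69 and 1.18, and even the higher exposed gill pool remained far below the digestive gland pools. For mgt200.forw_rep_c3881 the control gill pools had 9.11 and 8.95, the exposed gill pools 10.80 and 9.94, the control digestive gland pools 15.08 and 15.01 and the exposed ones 14.86 and 14.63. The signal of mgt200.forw_rep_c3991 was 9.33 and 9.38 in control gill, 10.62 and 10.61 in exposed gill, 16.23 and 16.40 in control digestive gland and 16.39 and 16.46 in exposed digestive gland. This probe had the widest tissue gap of the 8, 6.96 on the log2 scale, and its replicates lay closest together in exposed gill. The exception in level was mgt200.forw_rep_c4404, already bright in control gill at 12.29 and 12.21, with 13.69 and 13.44 in exposed gill, 16.16 and 16.04 in control and 16.40 and 16.31 in exposed digestive gland. Its tissue gap of 3.85 was the smallest of the 8. The faintest of the 8 in control gill was cDNA_MGC_rep_c16070, at 7.23 and 7.27, with 8.75 and 8.36 in exposed gill, 13.45 and 13.38 in control and 12.87 and 12.86 in exposed digestive gland. Its digestive gland ratio was below 0 in both replicates (-0.57 and -0.52), opposite in sign to its gill ratio. The control gill pools of cDNA_MGC_rep_c8573 had 8.999 and 9.01 and the exposed ones 10.61 and 10.01, and those of cDNA_MGC_rep_c9826 had 9.34 and 9.08 and 10.92 and 10.06, both with digestive gland pools between 14.36 and 15.40. Gill replicate 1 had the higher loess ratio in 7 of the 8, mgt200.forw_c2303 (1.21 and 1.38) being the other.

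**Figure D2:**
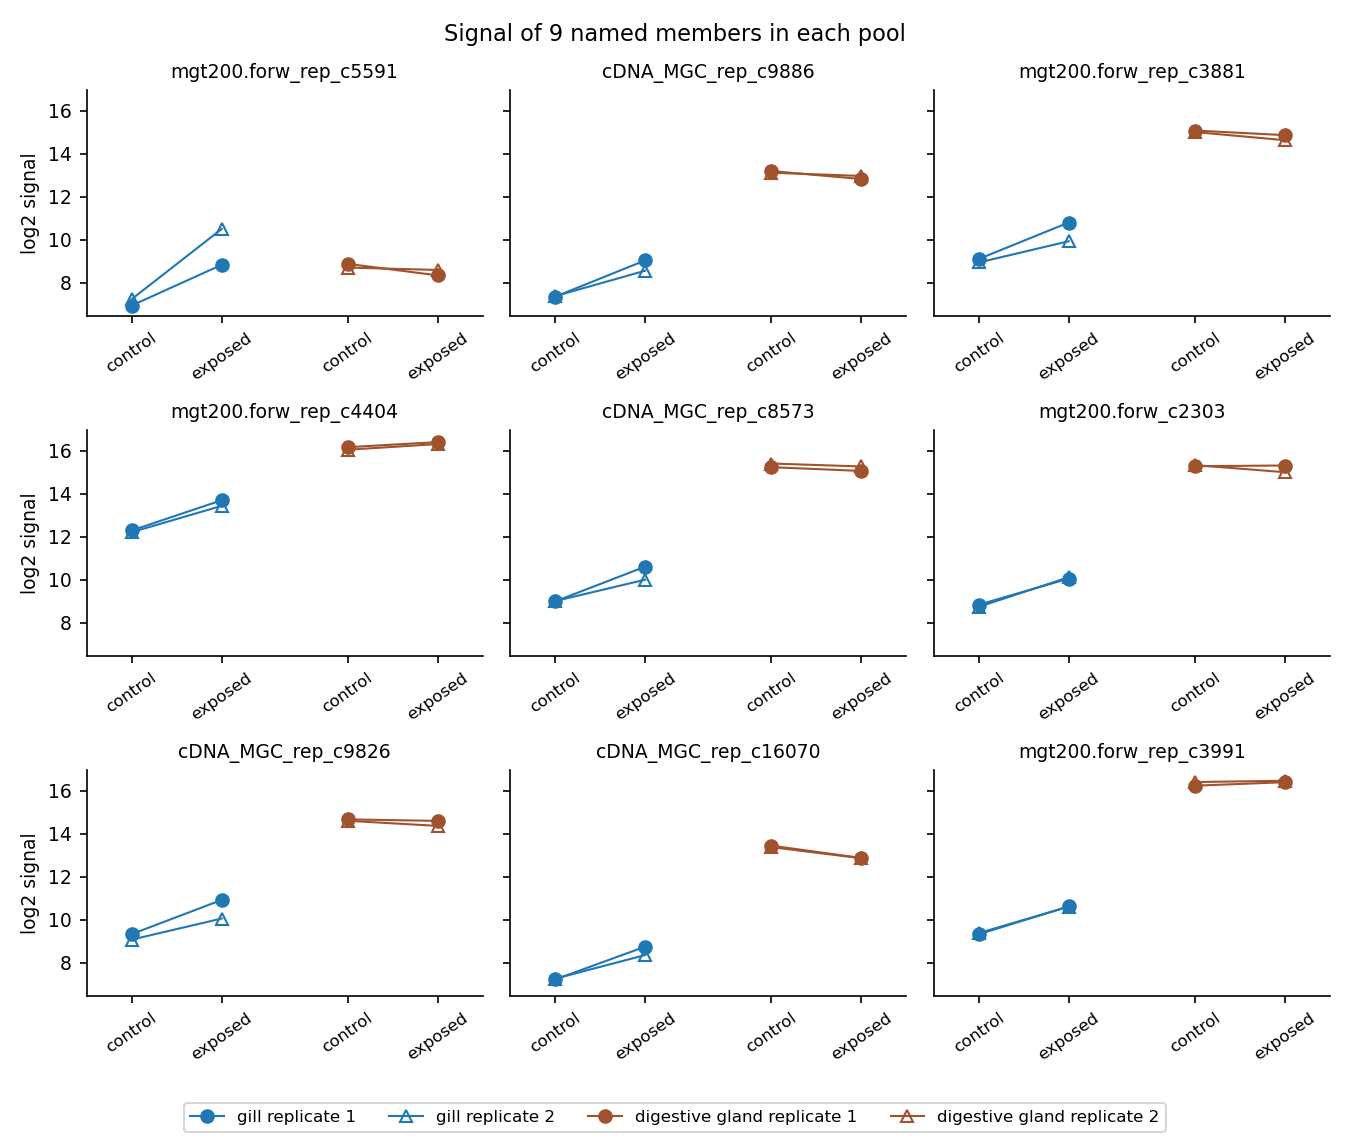
Log2 signal of 9 named members in the control and exposed pools of gill (blue) and digestive gland (brown), with replicate 1 as filled circles and replicate 2 as open triangles, lines joining pools hybridized together. Except for mgt200.forw_rep_c5591, the gill pools lie far below the digestive gland pools, where control and exposed differ by less than in the gill pools of the same replicate number.

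The highest gill ratio of all members belonged to a transcript of another kind. The control gill signal of mgt200.forw_rep_c5591 (CUST_40414_PI427859148) was not well above background on any array, at 6.95 and 7.24, whereas the exposed pools had 8.84 and 10.50 and were above background on all 4. On the mean of both replicates, exposed over control was 5.96-fold. The control was taken as the higher, on each array, of the lowest signal well above background and the probe's own. Here this was the probe's own signal, so that the value is no lower bound. It rests on a control signal not well above background and depends on the offset. The mean centred gill ratio was 2.31 at an offset of 100 and 4.78 at an offset of 10, against 3.05. The loess ratios of the replicates were 1.89 and 3.26 on the log2 scale. The exposed pools lay far apart, with centred ratios of 2.11 and 3.996. In digestive gland the signal was 8.88 and 8.71 in the control pools and 8.35 and 8.60 in the exposed pools. Both exposed digestive gland pools thus lay below both exposed gill pools, whereas the control pools were on average 3.25-fold higher in digestive gland than in gill. Mean intensity over both channels, which joins these opposite differences, was -0.25 on the log2 scale, gill minus digestive gland (limma, SE 0.34, adjusted p = 0.59). Control gill was also not well above background on any array for cDNA_MGT.90_c20937 (1.60-fold by the same comparison) and cDNA_MGT.90_c4851 (1.56-fold). The latter had the lowest control gill signal of the members at 6.49 and 6.59. At the other end, mgt200.forw_rep_c5110 had the highest control gill signal, 14.43 and 14.46, with 15.05 and 14.88 in exposed gill.

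Just inside the gill limit stood mgt200.forw_c9242 with centred ratios of 0.70 and 0.74, cDNA_MGC_c11104 with 0.84 and 0.70 and mgt200.forw_c8006 with 0.70 and 0.82. Just outside it, with a lower ratio that also rounds to 0.70, stood mgt200.forw_c9745, cDNA_MGT.90_c16736 and cDNA_MGT.90_c14352. After loess the 3 inside had gill ratios of 0.60 and 0.29, 0.73 and 0.14, and 0.61 and 0.35, and the 3 outside had 0.59 and 0.50, 0.61 and 0.59, and 0.92 and 0.08. The limit therefore separated probes that measured alike. The highest digestive gland mean of the members was 0.50 (cDNA_MGC_rep_c7596) and the lowest -0.48 (cDNA_MGT.90_c662), where loess gave 0.25 and 0.49 and, for the latter, -0.58 and -0.69.

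The rule set no limit on the level in either tissue, but the gill signals compared here are those whose ratio chose the members, and a low control gill signal favours both a high ratio and a wide tissue difference. By mean intensity over both channels, 212 of the 289 members tested (73.4%) were higher in digestive gland than in gill (limma, adjusted p under 0.05), where 20% of all probes were, and 56 (19.4%) were higher in gill, where 32.2% of all probes were. The median difference, gill minus digestive gland, was -4.01 on the log2 scale. In bulk tissue such as this, fewer cells of a type and less RNA per cell cannot be told apart. Taken over the probes above background in both channels on all 4 gill arrays, the contrast with the array was wider: 74.2% of 279 members against 16.9% of 17589 probes were higher in digestive gland, and 18.6% against 66.3% were higher in gill. For mgt200.forw_rep_c3991 the difference was -6.38 (SE 0.06, adjusted p = 1.69e-05) and for cDNA_MGC_rep_c9886 -4.94 (SE 0.09, adjusted p = 2.23e-05). Without quantile normalization between arrays, 263 members were higher in digestive gland and 18 in gill. The share of all probes was not counted for this setting, and nothing about the members is read from the change.

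In the control pools alone the members fell into 2 groups. The control signal was higher in digestive gland than in gill in both replicates for 233 of 289 members (80.6%), against 30.1% of all probes. On the mean of the replicates the difference was above 3 on the log2 scale for 184 members, between 1 and 3 for 18, within 1 of 0 for 66 and below -1 for 21. A class was then set, after these values had been seen, of probes whose control signal was at least 16 times higher in digestive gland in both replicates (digestive gland bright). It held 830 of 51210 probes (1.62%) and 166 of 289 members (57.4%), so that 20.0% of the class were members, against 0.575% of all probes. Over the probes above background on all gill arrays it held 162 of 279 members (58.1%) and 3.37% of all probes. Its median tissue difference among the members was 5.20. Of the 256 probes with a value that passed the gill limit with a digestive gland mean above 0.5, 64 (25%) were in this class, of the 30 with a mean below -0.5 there were 4 (13.3%), and of the 20 probes of the mirror rule there were 0.

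**Figure D3:**
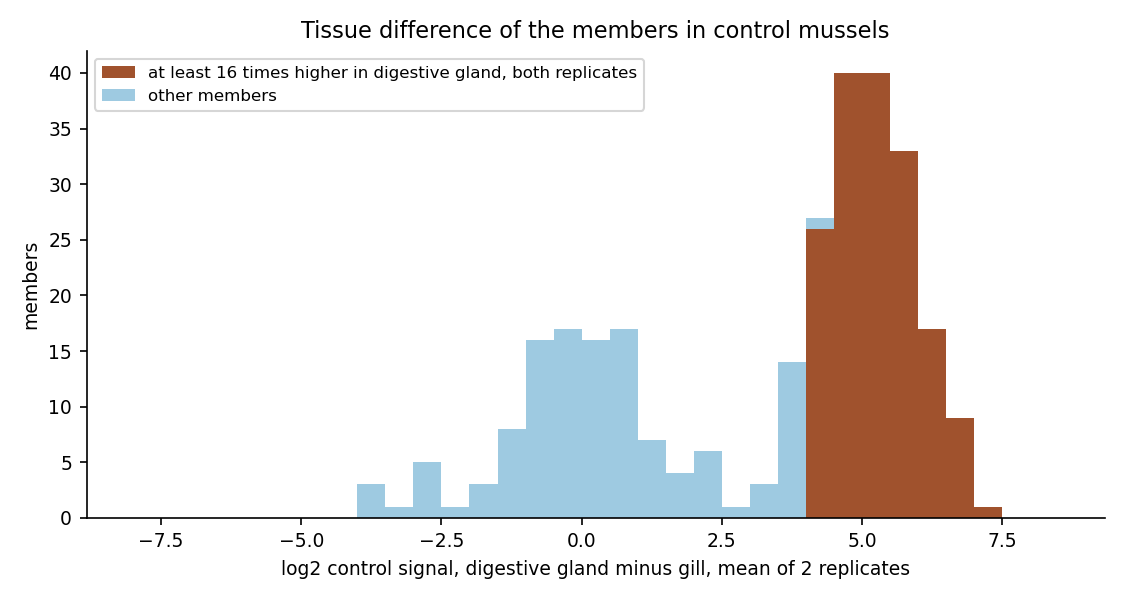
Number of members by the log2 difference of the control signal between digestive gland and gill, mean of 2 replicates, in bins of 0.5, for the 289 members with a value. A narrow group of members around 5, most of them at least 16 times brighter in digestive gland in both replicates (brown, 166 members), stands apart from a group around 0 (blue).

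The digestive gland bright members were measurable in control gill, and their median signal in digestive gland was nearly the same in control and exposed pools. The limit on the digestive gland ratio favours the latter. Their median log2 signal was 8.82 and 8.83 in the control gill pools and 9.69 and 9.80 in the exposed gill pools. In digestive gland it was 14.08 and 14.10 in the control pools and 14.21 and 14.22 in the exposed pools. The difference between exposed and control gill was a small share of the digestive gland level of the same probe. On the linear scale this gain was a median of 2.35% of the control digestive gland signal in replicate 1 (range 0.31% to 8.84%) and 2.39% in replicate 2 (0.32% to 9.97%). The middle 50% of these members lay between 1.48% and 3.18% and between 1.60% and 3.50%. Replicates of this gain correlated weakly across members (r = 0.21, rho = 0.29, n = 166). The 664 other probes of the class had median gains of 0.91% and 1.32%, a difference that the choice of members by the gill ratio favours.

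The probes of the class that were no members also had mostly positive gill ratios, with medians of 0.32 and 0.43, and 567 of the 664 (85.4%) were above 0 in both gill replicates. Over the whole class this was so for 733 of 830 probes (88.3%, against 29.9% of all probes). At the opposite end, the 1207 probes with a control signal at least 4 times higher in gill in both replicates (2.36% of all probes, and 10 members, 3.46%) had median gill ratios of -0.26 and -0.33, and 132 of them (10.9%) were above 0 in both replicates. Their digestive gland ratios centred on 0 (medians -0.01 and 0.05). To keep the control signal of one replicate out of its own ratio, probes were binned by the tissue difference of replicate 1 and the gill ratio of replicate 2 was read. Its median was -0.32 in the 1335 probes at least 4 times brighter in gill, -0.01 and 0.01 where the tissues differed by less than 1 on the log2 scale, 0.15 between 3 and 4, 0.46 between 4 and 5, 0.75 between 5 and 6 and 0.92 in the 62 probes above 6. Members made up 11.3%, 33.5% and 41.9% of the last 3 bins, shares that are a description only, since both replicates chose the members. With the replicates exchanged the medians of these 3 bins were 0.35, 0.54 and 0.73. The digestive gland ratio had medians between -0.12 and 0.12 in every bin of both readings.

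**Figure D4:**
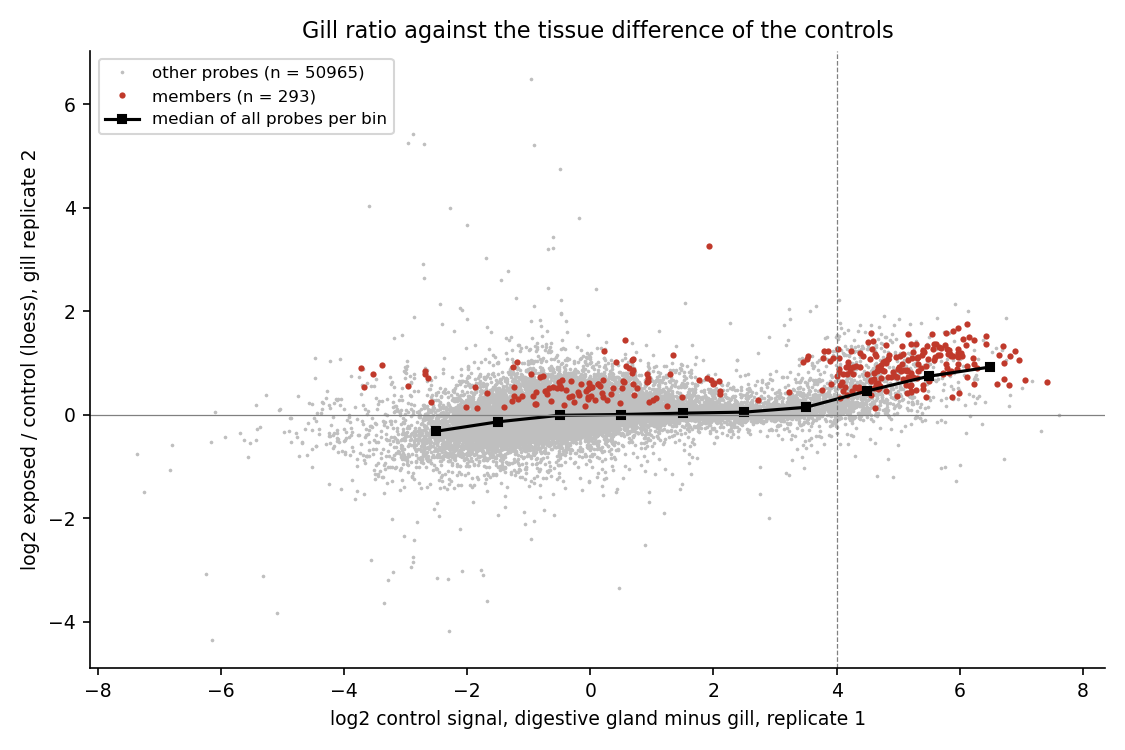
Log2 ratio of exposed to control in gill replicate 2 after loess against the log2 difference of the control signal between digestive gland and gill in replicate 1, for 293 members (red) and 50965 other probes (grey), with the median of all probes per bin (black; the outer bins are open) and a dashed line at 4. The medians climb from -0.32 on the left to 0.92 on the right, and most members lie to the right of the dashed line.

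Summed over the class, the signal of the 830 digestive gland bright probes in gill was 1.65 times higher in the exposed than in the control pool of replicate 1 and 2.08 times in replicate 2. As a share of all signal in gill it was 0.83% and 0.80% in the control pools and 1.48% and 1.96% in the exposed pools. In digestive gland the same probes made up 29.2% and 28.4% of the control and 33.6% and 34.6% of the exposed signal, a ratio of summed signal of 1.16 and 1.19. The summed signal of the gill bright probes was 0.85 and 0.82 times the control in gill and 0.97 and 0.94 times in digestive gland. The members' own sum was 1.82 times the control in both gill replicates. The 166 digestive gland bright members alone had 1.98 and 2.07 in gill and 1.05 and 1.005 in digestive gland. The rule chose the members by their ratios in both tissues, which favours such sums, and nothing is read from them. Without them, the 664 other probes of the class had 1.51 and 2.09 in gill and 1.22 and 1.30 in digestive gland, so that the class was higher in the exposed gill pools also outside the members. The part of this in the ratio of the members was not tested.

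**Figure D5:**
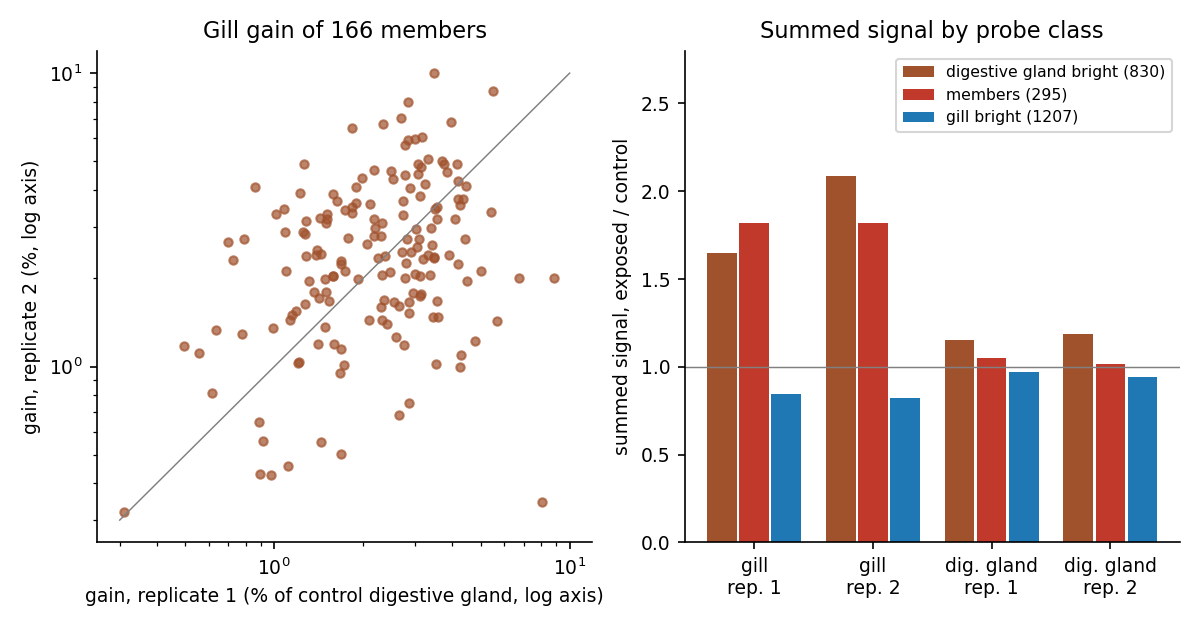
Left, gain of the 166 digestive gland bright members in gill, exposed minus control signal as a percent of the control digestive gland signal of the same probe, in replicate 2 against replicate 1 (log axes, line of equality). Right, summed signal in exposed over control pools for 3 sets of probes, digestive gland bright (control signal at least 16 times higher in digestive gland), members and gill bright (at least 4 times higher in gill); the first has 1.65 and 2.08 in gill, the last 0.85 and 0.82.

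The 129 other members, 6 of them lacking a value in 1 digestive gland replicate and so not placed in the class, had no common tissue difference. On the log2 scale, digestive gland minus gill, it ranged from -3.87 to 4.10 with a median of 0.23 (n = 123), being above 3 for 18, between 1 and 3 for 18, within 1 of 0 for 66 and below -1 for 21, and the control signal was higher in digestive gland in both replicates for 67 and higher in gill in both for 53. In single replicates the tissue difference reached 5.95 (n = 127) and 6.15 (n = 125). The gill ratio of the 129 had medians of 0.70 and 0.56. It exceeded 0.7 in both replicates for 23 of them (17.8%), and for 98 of the 166 digestive gland bright members (59.0%). Median signal in gill was 9.11 and 9.07 in the control and 9.92 and 9.88 in the exposed pools. Within this group 10 members were at least 4 times brighter in control gill than in control digestive gland, where few of the array's probes had gill ratios above 0. The brightest, mgt200.forw_c15793, had 14.00 and 14.00 in control gill and 14.92 and 14.95 in exposed gill, against 10.62 and 10.41 in control and 10.83 and 10.86 in exposed digestive gland. For cDNA_MGC_c11432 the control gill pools had 12.84 and 12.89 and the exposed ones 13.71 and 13.80, with 9.12 and 8.88 in control and 9.07 and 9.23 in exposed digestive gland. In both, exposed and control gill did not overlap, which the choice of members by the gill ratio favours. The digestive gland pools of either treatment lay below the control gill pools. The lowest gill ratios among the 10 belonged to mgt200.forw_c16012 (0.61 and 0.16) and cDNA_MGT.90_c22061 (0.71 and 0.24), and the others lay between 0.54 and 0.96 in either replicate. These members were picked out after their values had been seen.

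By count, the members came from the libraries in other shares than the array as a whole. Control-library contigs made up 124 of the 295 (42.0%, against 33.2% of all probes), SSH forward contigs 104 (35.3%, against 29.4%) and exposed-library contigs 67 (22.7%, against 37.4%). In the digestive gland bright probes that were no members these shares were 36.6%, 45.2% and 18.2%. The low share of the exposed library was thus not particular to the members. Contigs with the tag rep in their name, by which the assembler marks repetitive contigs, numbered 174 (59.0%, against 27.6% of all probes). Among the digestive gland bright members these were 124 of 166 (74.7%), in the whole digestive gland bright class 62.9%, and among the other members 50 of 129 (38.8%). Redundant contigs of one transcript could not be joined here, and the number of transcripts behind the 295 probes is unknown. A total of 69 members were spotted 2 times on each array, and the spots of one probe differed by a median of 0.08 on the log2 scale (highest 0.42 over 276 pairs in gill), a small part of the gill ratios.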

How the data were processed

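The authors deposited, for 8 two-channel arrays, the scanner output of Agilent Feature Extraction 10.7.3.1 (spot and local background intensity, flags) and a table of log2 values, red over green, for each spot. The deposited intensities were median pixel values and were not normalized. Probes had been designed from contigs assembled by the authors. The deposited log2 table, whose processing is not named in it, matched normexp with an offset of 10 plus loess (r of 0.9995 or more) and was used as an alternative.

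Centred ratios chose the members: median signal minus background median, set to 0 where negative, plus 50, log2 of exposed over control, minus the array median. Loess ratios came from limma 3.58.1 in R 4.3.3: normexp with an offset of 50, loess within arrays, and quantile normalization of mean intensity between arrays. Spots flagged as outliers (0.044% to 0.15% per array) were left out, repeated spots averaged, and an array averaged with its dye swap. The fits used 4 averages (1 mean per tissue, 2 residual degrees of freedom) and Benjamini-Hochberg adjustment at 0.05, and were tested on simulated data. The methods call the replicates biological, each a pool of 5 mussels, and p-values measure the spread between these pools.

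The members and classes were chosen with earlier results of these data known. Named probes are the 8 highest gill ratios above background, the 3 highest of all, the 3 nearest the gill limit on either side, and the extremes of digestive gland ratio and control gill signal. The groups of contigs and gene lists in this rule found no members, since no gene names could be joined. The number of arrays limits the precision. Figures were drawn with matplotlib 3.10.9.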

Additional observations from a re-analysis of the deposited data

How the results depend on the processing

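The number of members depended strongly on the settings. Against 295, there were 762 at an offset of 10, 155 at an offset of 100, 157 with loess in place of the array median (132 of them members), 135 with normexp and loess, 459 with the scanner software's processed signals, 82 at a gill limit of 1, 159 at a digestive gland limit of 0.25 and 133 when each digestive gland replicate had to lie within the limit. The authors' table gave 296 probes, of which 188 were members. Arrays with the exposed RNA in green gave 13 probes and those with it in red 390, of which 1 and 8 were members. Leaving out 1 replicate gave 170 to 3502, the highest without gill replicate 1 and the lowest without digestive gland replicate 1.

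The median gill ratio of the members was 1.16. It was 0.81 with normexp and loess, 1.76 on the red arrays alone and 0.63 on the green arrays alone, and 0.88 to 1.36 with 1 gill replicate left out. The median digestive gland ratio, 0.19, was 1.34 on the red and -0.97 on the green arrays, and -0.12 to 0.49 with 1 replicate left out. Each of the 209 alternative gill ratios of the 19 named probes stayed above 0 (lowest 0.05). These probes were members or lay just outside the gill limit, which favours this sign. In size, 110 of the 209 values differed from the main value by at least the standard deviation of the probe's 2 gill replicates, and 99 by less.

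Members called higher in gill by mean intensity numbered 18 without quantile normalization, against 56, and 37 to 64 with 1 replicate left out, the lowest without digestive gland replicate 1. Those higher in digestive gland numbered 208 to 263 under the same alternatives. Neither count was made over all probes here, so that a change of the members cannot be told from a change of the whole array. The class of digestive gland bright members, an alternative added after seeing the data, held 166 to 190. The whole class was less stable, and members were a smaller share of it under the alternatives. It grew from 830 probes to 1739 without quantile normalization (190 members) and to 1536 at a normexp offset of 10 (174 members). The median tissue difference of all members was 6.27 and 4.72 there, against 4.42. The gain in gill was not computed under these alternatives. The exposure fit in gill called 3 members, and 143 (0.682% of all probes) when no background was subtracted, 263 (3.18%) at a normexp offset of 10, 270 (3.2%) on the authors' table and 0 with any 1 replicate left out. The cause of these differences was not tested.

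Replicate numbers are shared between the tissues, but the labels do not tie them to the same animals. Deviations of equally numbered samples correlated at 0.16 for ratios and 0.07 for intensities. With the replicate number as a block, 0 members were called by the exposure fit in gill. By mean intensity 57 were then higher in gill and 211 in digestive gland, without a count over all probes. For the 3 members not well above background in control gill, the control signal was faint and the fold values are uncertain.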
